A study of Mus musculus with 2 samples.

Results

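The genes described here encode the subunits of the mitochondrial respiratory chain and ATP synthase, with a few of their assembly factors. They were chosen by symbol: every gene row that starts with mt-Nd, mt-Co, mt-Cyt, mt-Atp, Nduf, Uqcr, Sdh, Cox4, Cox5, Cox6, Cox7, Cox8 or Atp5. This gave 109 of 27998 gene rows, of which 13 lie on the mitochondrial genome and 96 on nuclear chromosomes. The 13 are also all the rows with an mt- prefix, so their share of a barcode's counts is the usual mitochondrial share. The rule itself uses the symbols alone.

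Single cells of C57BL/6J mouse eyes, taken from the RPE (retinal pigment epithelium) with the choroid, were profiled on the 10x Genomics platform. The neural retina and the front of the eye had been removed, and brown hexagonal cells were picked under a microscope. One group was given NaIO3 (sodium iodate, an oxidant that damages the RPE) at 20 mg/kg by vein, the other PBS alone, and both are labelled as treated for 7 days. Eyes of 6 mice were pooled per group into 1 library, and the age of the mice is not stated. Since each group is 1 library, no difference between them has a replicate check or a p-value, and every interval below is a 95% interval that covers counting error only.

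Oxidative phosphorylation runs on 5 complexes in the inner mitochondrial membrane. Complex I (NADH dehydrogenase) and complex II (succinate dehydrogenase) feed electrons to complex III (cytochrome bc1), complex IV (cytochrome c oxidase) passes them to oxygen, and complex V (ATP synthase) uses the proton gradient. All but complex II mix subunits made inside the mitochondrion from its own genome with subunits imported from the cytosol, so the 2 genomes must be expressed side by side. The RPE, a pigmented epithelium under the photoreceptors, is known for its many mitochondria and its reliance on oxidative metabolism.

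The PBS library held 4571 barcodes with at least 500 genes and the NaIO3 library 4058, with a median of 10097 and 9792.5 UMIs (unique molecular identifiers, counted molecules) per barcode. Of these, 184 and 114 had over 25% mitochondrial counts, and 24 barcode sequences occurred in both libraries. Clusters formed without the 109 genes gave 3704 RPE-like cells in PBS and 2321 in NaIO3, named from RPE markers of which 10 of 12 were at least 2-fold above the median cluster in every RPE-like cluster. Apart from 2 NaIO3 cells, each RPE-like cluster came from 1 library. Summed over RPE-like cells, the 12 RPE markers took 116453 CPM (UMIs scaled to the same total) in PBS and 80629 CPM in NaIO3, of which a single marker gave 93150 and 59706 CPM. Markers of other cells moved as well: the 11 macrophage markers summed to 211 and 1682 CPM, the 11 surface epithelium markers to 276 and 1850 CPM, and the 10 rod markers to 909 and 336 CPM, with none of these markers at 0. Their part in the results below was not tested.

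The 2 genomes went opposite ways in RPE-like cells. The 13 mitochondrially encoded genes took 8.62% of all UMIs in PBS and 11.23% in NaIO3, which is 1.303 times as much (1.301 to 1.305). The 96 nuclear genes took 4.56% and 4.03%, that is 0.884 times as much (0.882 to 0.886). RPE-like cells therefore held 1.89 mitochondrial UMIs per nuclear respiratory UMI in PBS and 2.78 in NaIO3. Per barcode, the median mitochondrial share was 8.45% in PBS and 12.15% in NaIO3.

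The 25% limit on mitochondrial counts removed 173 PBS and 92 NaIO3 RPE-like barcodes and left these values nearly as they were. With it, the mitochondrial share was 8.18% and 10.79%, a ratio of 1.32 (1.318 to 1.322), and the nuclear share 4.61% and 4.08%, a ratio of 0.884 (0.882 to 0.886). A limit of 10% did change the picture. It lies above the median barcode of PBS (8.45%) and below that of NaIO3 (12.15%), so it removed a larger part of the NaIO3 cells. The limit also caps the mitochondrial share itself, which is part of what is compared. With it the log2 ratio was 0.11 for the mitochondrial sum and 0.03 for the nuclear sum, so the lower level of the nuclear genes was no longer there.

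The 4 PBS clusters of RPE-like cells held between 8.16% and 9.59% mitochondrial counts, and the 3 NaIO3 clusters between 10.02% and 13.57%. For the nuclear genes the ranges were 4.38% to 4.69% and 3.73% to 4.15%. Neither pair of ranges overlapped, although clusters of 1 library are not replicates. The NaIO3 cluster at 13.57% had the pigment genes Pmel, Trpm1 and Dct among its 5 leading genes and the lowest median depth of the 7, 7919.5 UMIs per barcode.

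**Figure D1:**
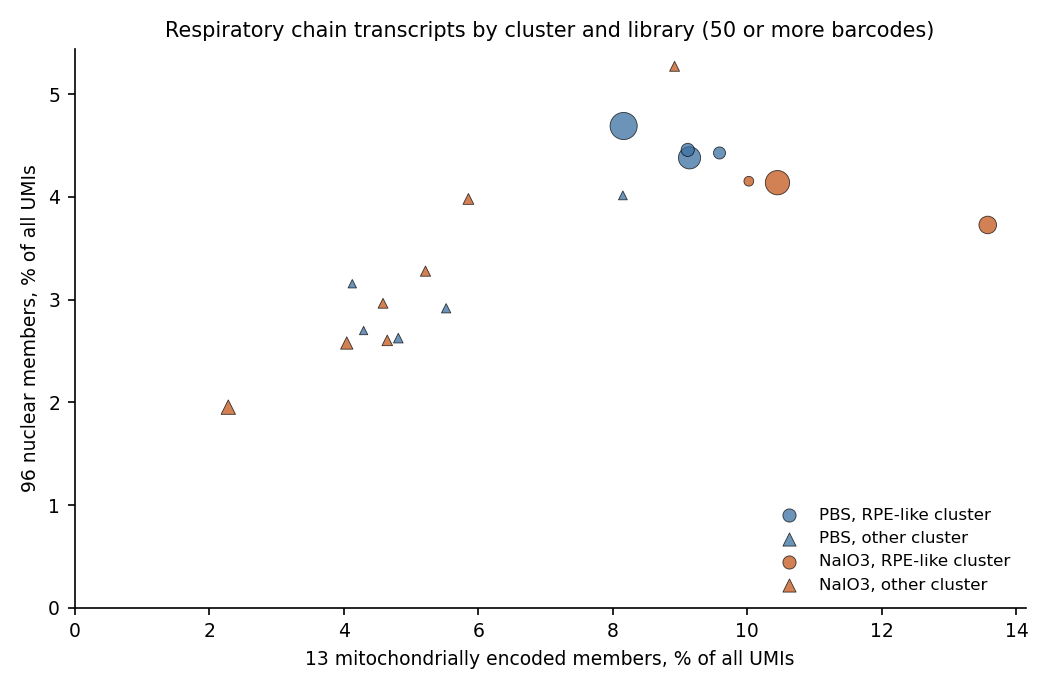
Share of UMIs from the 13 mitochondrially encoded genes (x axis, % of all UMIs) and from the 96 nuclear genes (y axis, % of all UMIs) for each cluster with at least 50 barcodes in a library. Circles are RPE-like clusters, triangles all others, colour gives the library, and size grows with the number of barcodes; RPE-like clusters lie to the right of most others, and those of NaIO3 lie further right and lower than those of PBS.

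Among the mitochondrially encoded genes, 11 of 13 were above a ratio of 1 and 4 were past 1.3-fold, the size used here for calling a gene higher or lower. Over all 11510 measured genes (100 UMIs or more over both libraries), 31.2% were higher past 1.3-fold, so 4 of 13 is close to the background share. The median log2 ratio set them apart more than the count did: 0.31 for the 13 genes and 0.16 for all measured genes.

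The genes differed among themselves by more than their counting error. For mt-Atp6, the proton channel subunit of ATP synthase, the level was 14235 CPM (14200 to 14270) in PBS and 20432 CPM (20378 to 20487) in NaIO3, giving a ratio of 1.44. mt-Nd1, a membrane subunit of complex I, was at 7470 CPM (7445 to 7495) and 10292 CPM (10254 to 10331), a ratio of 1.38. mt-Cytb, the mitochondrially encoded subunit of complex III, was at 13411 and 18254 CPM, a ratio of 1.36, and mt-Nd4 at 5678 and 7590 CPM, a ratio of 1.34. These 4 make up the genes past 1.3-fold, and the 25% limit left the same 4.

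The mitochondrially encoded subunits of cytochrome c oxidase stood lower in this order, with ratios of 1.24 for mt-Co1 (14378 and 17796 CPM), 1.19 for mt-Co2 (5507 and 6548 CPM) and 1.26 for mt-Co3 (21578 and 27201 CPM). mt-Nd3 had 522 and 624 CPM, mt-Nd4l 286 and 338 CPM, mt-Nd5 622 and 671 CPM, and mt-Atp8 228 and 293 CPM. The other two stood below 1. mt-Nd2 was at 2220 CPM (2206 to 2234) in PBS and 2186 CPM (2168 to 2204) in NaIO3, giving a ratio of 0.984. mt-Nd6 was at 35.6 CPM (33.9 to 37.4) and 28.4 CPM (26.4 to 30.5), a ratio of 0.799 (0.732 to 0.871).

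mt-Nd6 is the sole member transcribed from the minus strand of the annotated mitochondrial genome (chrM:13552-14070, GRCm38), and its end overlaps that of mt-Nd5 (chrM:11742-13565) by a few bases. The annotated intervals of mt-Atp8 (chrM:7766-7969) and mt-Atp6 (chrM:7927-8607) also overlap, as do those of mt-Nd4l (chrM:9877-10173) and mt-Nd4 (chrM:10167-11544). Those neighbours share a transcript, and neither the strand setting nor the handling of reads with several matches is stated, so their single values are uncertain.

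As shares of the mitochondrial counts alone, which no scaling of nuclear genes can move, mt-Atp6 took 16.5% in PBS and 18.2% in NaIO3, mt-Co3 25.04% and 24.23%, mt-Co1 16.7% and 15.9%, and mt-Nd2 2.58% and 1.95%. The mitochondrial transcripts thus did not shift in step.

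Of the 96 nuclear genes, 92 were measured in RPE-like cells. Ndufa4l2 (39 UMIs over both libraries), Cox6a2 (32), Cox7b2 (10) and Cox8c (0) were not. A ratio below 1 was found for 62 of the 92, with a median log2 ratio of -0.17 against 0.16 for all measured genes. Past 1.3-fold, 8 were lower and 3 higher. Among all measured genes 9.86% were lower and 31.2% higher past that fold, so the 8 lower are no more than the background share, while the 3 higher are far fewer. The 25% limit left the same 8 and 3 genes past 1.3-fold, beside 9.76% lower and 31.3% higher of all genes.

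**Figure D2:**
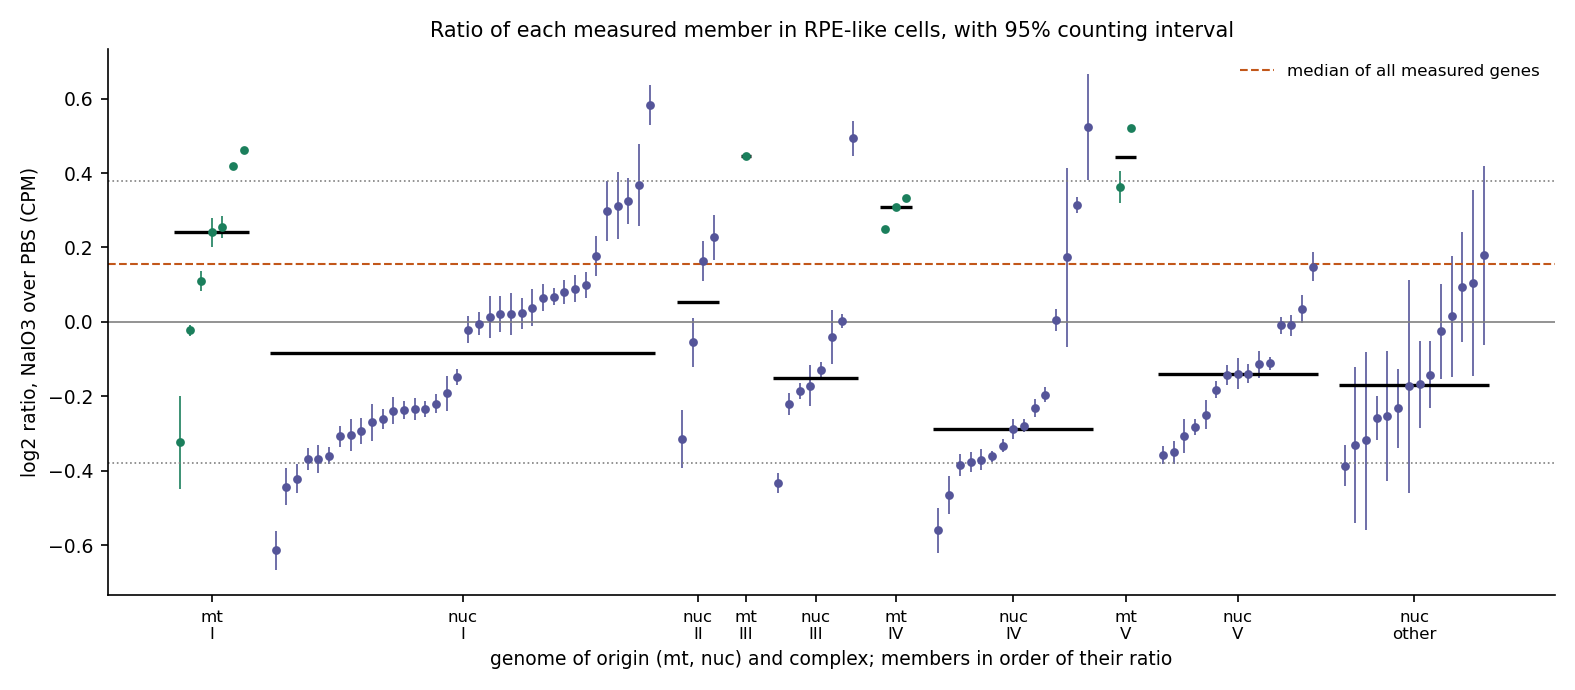
Log2 ratio of CPM, NaIO3 over PBS, for each of the 105 measured genes in RPE-like cells (points, with 95% counting intervals), grouped by complex and by genome of origin (mt, nuc; "other" holds 12 assembly factors, Atp5s and Cox7a2l). Black bars are group medians, dotted lines mark 1.3-fold and the dashed line the median of all measured genes (0.16); every mitochondrial group median lies above that line and every nuclear one below it.

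The order of complexes differed between the genomes. The nuclear subunits of complex IV had the lowest median log2 ratio, -0.29 (15 measured, 11 below 1), while its 3 mitochondrial subunits had 0.31. Complex III had -0.15 (8 nuclear, 6 below 1) and 0.44 for mt-Cytb, and complex V had -0.14 (15 nuclear, 13 below 1) and 0.44 for its 2 mitochondrial subunits. Complex I had -0.08 (36 nuclear, 20 below 1) and 0.24 (7 mitochondrial). Complex II, which has no mitochondrial subunit, had 0.05 over its 4 genes. The 12 assembly factors among the members had -0.16, with 1 lower past 1.3-fold. With at most 10% mitochondrial counts the medians of complexes I, III and V were 0.06, 0.07 and 0.02, so these turned sign, while complex IV was below 0 in every setting run (-0.46 to -0.03). The median of complex II was below 0 in 4 of 15 settings, down to -0.12 with TMM scaling.

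In complex I, Ndufs4, an accessory subunit of the NADH-oxidising arm whose loss is known to cause a Leigh-like disease in mice, was at 228 CPM (223 to 232) in PBS and 149 CPM (144 to 153) in NaIO3. The ratio, 0.653 (0.630 to 0.678), was the lowest of all measured members. Ndufb5 was at 246 and 181 CPM and Ndufb9 at 388 and 290 CPM; both sit in the membrane arm. Some core subunits went the other way. Ndufs1, the large iron-sulfur subunit, was at 34.1 and 44.0 CPM (ratio 1.29) and Ndufv1, the flavin subunit, at 65.8 and 81.0 CPM (ratio 1.23).

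Split after these values were seen, the 7 nuclear core subunits of complex I, the ones that carry the redox centres, were all above 1 with a median log2 ratio of 0.18. The 29 accessory subunits had a median of -0.23, with 9 above 1. Over the settings run, the core median ranged from 0.00 to 0.41, and the accessory median from -0.41 to 0.03, its one value above 0 being that with at most 10% mitochondrial counts. Ndufs7, Ndufs8 and Ndufv2 were within 0.03 of a log2 ratio of 0. The accessory subunits Ndufa10 (112 and 140 CPM) and Ndufa9 (52.9 and 65.7 CPM) stood with the core subunits.

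Complex II gave a mixed set: Sdhc (122 and 143 CPM) and Sdhb (153 and 171 CPM) were above 1, Sdhd (90.02 and 72.4 CPM) below, and Sdha, the flavoprotein, was at 113 and 108 CPM with an interval of the ratio from 0.919 to 1.01. In complex III, the core protein Uqcrc1 was at 173 CPM (169 to 177) and 244 CPM (238 to 250), a ratio of 1.41, whereas the hinge protein Uqcrh was at 788 CPM (779 to 796) and 583 CPM (574 to 593), a ratio of 0.741. The other core protein, Uqcrc2, had a log2 ratio of -0.04 (-0.11 to 0.03).

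Cox5a, a subunit of complex IV, was at 227 CPM (223 to 232) and 165 CPM (160 to 170), a ratio of 0.725, and Cox7b at 625 and 479 CPM, a ratio of 0.766. Cox4i1, the regulatory subunit that binds ATP, was at 1708 and 1408 CPM, a ratio of 0.824, while Cox5b had a log2 ratio of 0.01. In complex V no nuclear subunit passed 1.3-fold. Its catalytic beta subunit Atp5b was at 609 CPM (602 to 616) and 605 CPM (596 to 615), with intervals that overlapped. The stalk subunits Atp5j (976 and 762 CPM) and Atp5o (291 and 322 CPM) marked the lowest and highest ratio of its nuclear subunits, 0.781 and 1.11. Sdhaf4, an assembly factor of complex II, was at 188 and 144 CPM. Many nuclear members have processed pseudogenes in the mouse genome, so their counts depend on how shared reads were handled, which is not stated.

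Ratios differed with transcript length. The 92 nuclear members are short, with a median annotated transcript of 772.5 bases against 2703 for other measured nuclear genes. Among those other genes the median log2 ratio was -0.05 up to 600 bases, -0.14 from 600 to 800, -0.04 from 800 to 1200, 0.14 from 1200 to 2000 and 0.25 from 2000 to 4000. The members had -0.23, -0.23, -0.17, -0.02 and 0.01 in the same bins, so they lay below other genes of like length in each of the 5. The bins hold 28, 19, 15, 18 and 11 members. The core subunits of complex I, at a median of 1312 bases, are longer than its accessory ones, at 704. Across genes, Spearman's rho of length and ratio was 0.28 over the 92 members and 0.12 over 10957 other genes, as a description, since genes of 1 pair of libraries are not independent. The cytosolic ribosomal proteins, also short, had a median log2 ratio of -0.17 (91 measured). The part of length in the difference between core and accessory subunits was not tested.

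**Figure D3:**
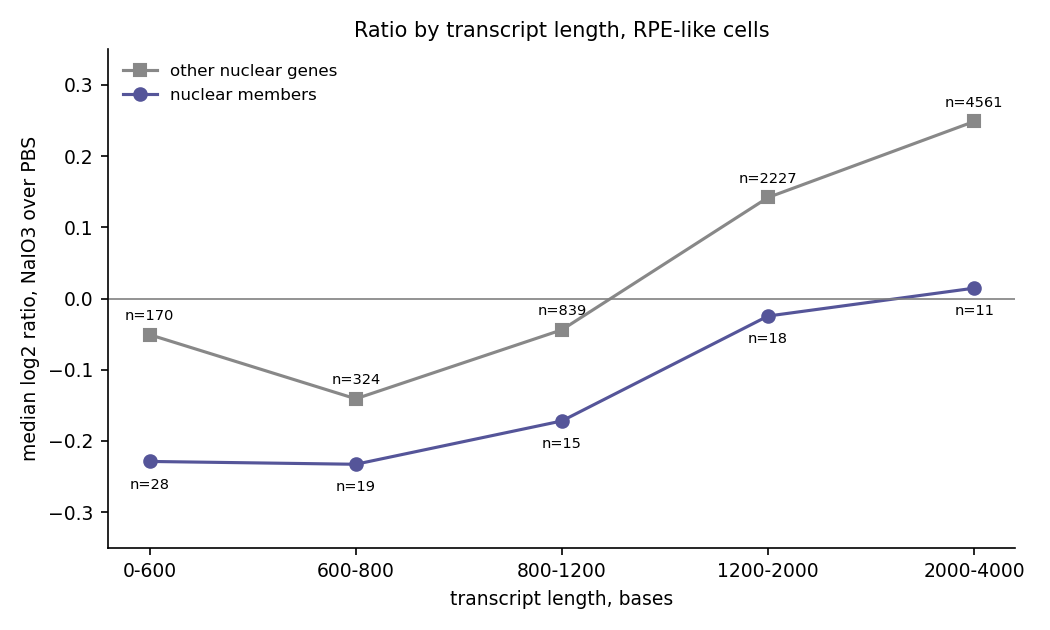
Median log2 ratio of CPM, NaIO3 over PBS, in RPE-like cells (y axis) against annotated transcript length in bases (x axis, 5 bins), for the nuclear respiratory genes (circles) and all other measured nuclear genes (squares), with the number of genes beside each point. Both lines are higher in the 2 longest bins than in the 3 shortest, without climbing at each step, and the members lie below the other genes in each bin, from -0.23 against -0.05 in the shortest to 0.01 against 0.25 in the longest.

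Depth and mitochondrial share were tied to the nuclear genes across barcodes within each library. As a percentage of nuclear-gene UMIs, the nuclear respiratory genes of PBS RPE-like cells took 5.01% in barcodes with up to 5% mitochondrial counts, 5.11% at 5 to 10%, 4.88% at 10 to 15%, 3.87% at 15 to 25% and 2.62% above 25%. In NaIO3 the same bins held 6.07%, 5.16%, 4.13%, 3.17% and 2.63%. Barcodes that were rich in mitochondrial transcripts were thus poorer in nuclear respiratory transcripts in both libraries, and at over 25% the libraries did not differ beyond counting error (2.58% to 2.67% and 2.57% to 2.68%).

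Several other measures moved along these bins. Median depth went from 20709 UMIs in the lowest bin to 3815 in the highest in PBS, and from 23005.5 to 5024.5 in NaIO3. Malat1, a non-coding RNA of the nucleus, went from 4.88% to 12.38% of nuclear-gene UMIs in PBS and from 2.59% to 7.49% in NaIO3, and cytosolic ribosomal proteins from 5.35% to 2.91% and from 6.13% to 3.67%. Their part in the result was not tested.

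Binned by depth, the mitochondrial share was higher in NaIO3 in each of 5 bins. It was 21.4% in PBS and 22.1% in NaIO3 up to 5000 UMIs, 13.5% and 16.4% at 5000 to 8000, 9.37% and 12.2% at 8000 to 12000, 7.54% and 9.77% at 12000 to 20000, and 6.09% and 7.21% above 20000. The nuclear respiratory genes were lower in NaIO3 in the first 4 bins, with 3.75% and 2.98%, 4.39% and 3.26%, 5.02% and 4.14%, and 5.08% and 4.75% of nuclear-gene UMIs. In the deepest bin they were higher, with 5.17% in PBS and 5.59% in NaIO3. The depth bins of the libraries hold different numbers of barcodes: 443 PBS and 261 NaIO3 barcodes lie above 20000 UMIs, and 392 and 179 at or below 5000. Depth still differed within bins, most in the lowest, where the median was 3861.5 UMIs in PBS and 4655 in NaIO3.

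**Figure D4:**
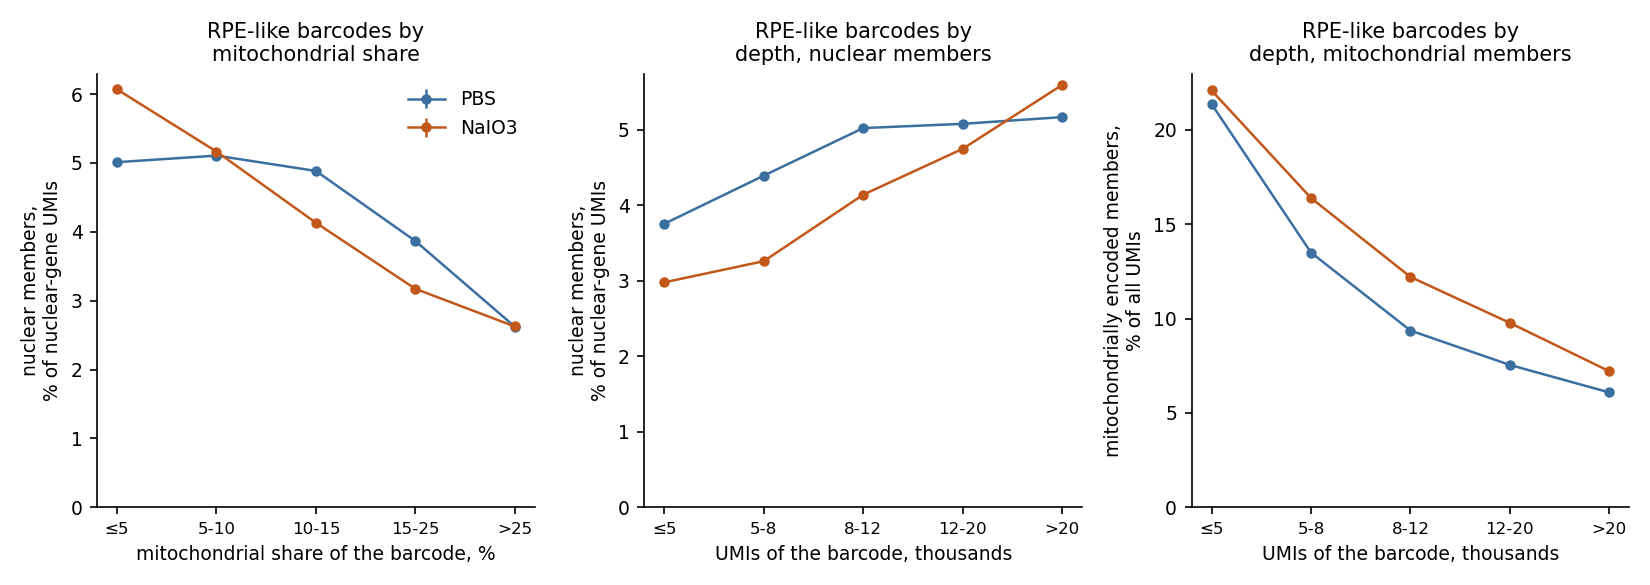
RPE-like barcodes of PBS and NaIO3 grouped by mitochondrial share (left, % of UMIs) or by depth (middle and right, in units of 1000 UMIs); y axes give the nuclear respiratory genes as % of nuclear-gene UMIs (left, middle) and the mitochondrially encoded genes as % of all UMIs (right), with 95% counting intervals that are mostly smaller than the points. The nuclear share drops to 2.62% and 2.63% at high mitochondrial share in the 2 libraries, and in each depth bin the NaIO3 points for the mitochondrial genes lie above those of PBS.

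Across single barcodes, Spearman's rho of the mitochondrial share and the share of nuclear respiratory genes was -0.32 over 3704 PBS cells and -0.67 over 2321 NaIO3 cells. The mitochondrial share had a rho of -0.67 and -0.74 with depth, and both measures share the barcode's depth, so these values are descriptions. With cells of 5000 to 20000 UMIs alone, the mitochondrial sum had a log2 ratio of 0.47 and the nuclear sum -0.31. There, 30 nuclear members were lower past 1.3-fold, beside 11.6% of all 11015 genes measured.

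The count of lower members depended on scale. All measured genes had a median log2 ratio of 0.16, and TMM scaling, which assumes that most genes do not differ, lowers every ratio by 0.17. On that scale 40 of 92 nuclear members were lower and 1 higher past 1.3-fold, beside 19.0% lower and 20.4% higher of all genes, and no mitochondrially encoded gene passed it, although their sum kept a log2 ratio of 0.21. A common scale factor cannot move the distance of the nuclear members' median from that of all measured genes, which was -0.33. The other settings gave values from -0.50 in the depth window to -0.04 with at most 10% mitochondrial counts.

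Other choices moved the counts as well, and the share of all genes past the fold with them. Centred on the median nuclear gene, 38 nuclear members were lower and 1 higher, beside 17.8% and 21.5% of all genes. With every cell given the same weight it was 31 lower and 6 higher (12.4% and 35.1%), in the largest cluster of each library 8 higher (31.2%; 9.2% lower), and at a Leiden resolution of 0.5 it was 5 higher (31.2%; 9.77% lower). With at most 10% mitochondrial counts 1 was lower (8.27%; 19.1% higher), and at 1.5-fold 1 was lower and none higher (4.52% and 18.8%). Over all barcodes of any cell type 26 were lower (17.4%; 36.4% higher). Without clusters that had a pigment gene among their 10 leading genes 15 were lower and 7 higher (16.6% and 29.3%), but this left 122 NaIO3 barcodes. Of these, 120 came from the interferon-led cluster, with Ifit1, Rsad2 and Ifit3 among its leading genes.

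The binding motifs of known regulators were looked up in the RefSeq promoter windows (GRCm38.p6; 250 bases before to 50 after the start), which matched 77 of the 96 nuclear genes. NRF1 and GABP, an ETS factor, are textbook activators of respiratory genes, and YY1 binds many of the same promoters. On both strands, the NRF1 consensus was found in 21 of the 77 windows, 27.3%, against 5.19% of the windows of 27025 genes. AANATGGC (YY1) was in 18, 23.4% against 6.96%; CCGGAAGT (ETS) in 5, 6.49% against 4.31%; TCAAGGTCA (ERR) in 2, 2.60% against 0.466%; and CCAAT in 33, 42.9% against 41.1%. Of the 52 matched members with a ratio below 1 in RPE-like cells, 28 held CCAAT and 17 the NRF1 motif. Of the 24 above 1 it was 4 for each of these motifs. The other motifs did not separate in this way: YY1 was in 12 of 52 and 6 of 24, ETS in 3 and 2, and ERR in 2 and 0. This split was chosen after the ratios were seen. It was not made over all measured genes, so whether it is particular to the members is not known. A match of letters does not show that a factor binds.

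The upstream part of the Uqcrh window is shown as that of a member at 0.741 in NaIO3 that holds 2 of these motifs, in capitals.
Uqcrh, chr4:116075071-116075320, minus strand: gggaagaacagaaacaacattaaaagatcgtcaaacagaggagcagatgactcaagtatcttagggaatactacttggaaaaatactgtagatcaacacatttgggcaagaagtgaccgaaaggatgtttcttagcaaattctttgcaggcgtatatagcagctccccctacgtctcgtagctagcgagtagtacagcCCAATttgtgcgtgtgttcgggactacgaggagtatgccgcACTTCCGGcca

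Without matching for depth, RPE-like cells carried more of both sets than most other classes of at least 50 barcodes. In the PBS library, surface epithelium-like cells (keratin-expressing cells, 66 barcodes) had 2.48% mitochondrial and 2.18% nuclear respiratory UMIs, 69 mural-like cells 5.71% and 3.35%, and 321 fibroblast-like cells 5.95% and 3.25%, beside 8.62% and 4.56% in RPE-like cells. Their median depth was 12951, 3621 and 4097 UMIs, beside 11116.5 in RPE-like cells. RPE-like barcodes of PBS with up to 5000 UMIs had 21.4% mitochondrial and 2.95% nuclear respiratory UMIs. That nuclear share lies below those of the mural-like and fibroblast-like cells. The fibroblast-like class was uneven: 1 cluster of 74 barcodes, with the most UMIs of the class and a mean log2 fold of RPE markers of 1.43, had 8.15% and 4.01%, and the others with at least 50 barcodes had 4.13% to 4.81% and 2.63% to 3.15%. In the NaIO3 library, 704 surface epithelium-like cells had 3.17% and 2.35%, 448 macrophage-like cells 4.27% and 2.59%, an unnamed cluster of 182 barcodes led by Fbln2, Cdkn2a and Col1a1 had 5.85% and 3.98%, and 150 dividing cell-like cells had 8.25% and 4.98%, beside 11.23% and 4.03%. The dividing cell-like class joins 2 unlike clusters. One, of 130 NaIO3 barcodes with the pigment cell gene Mlana among its 10 leading genes and RPE markers at 29.1% to 92.5% of the RPE-like level, had 8.92% and 5.27%; the other, of 20 barcodes with the macrophage genes Spp1, Lyz2 and Fcer1g among its leading genes, had a median mitochondrial share of 3.26%. Among the classes with at least 50 barcodes in a library, RPE-like cells were highest for the mitochondrial genes in both, and the dividing cell-like cells of NaIO3 were highest for the nuclear genes. Smaller clusters stood as high: over both libraries the median mitochondrial share per barcode was 9.57% in a rod-like cluster (38 PBS and 20 NaIO3 barcodes) and 9.66% in a cone-like one (42 and 7). Median depth in NaIO3 was 18292.5 UMIs in dividing cell-like and 9167 in RPE-like cells. RPE-like barcodes of NaIO3 had 4.28% nuclear respiratory UMIs at 12000 to 20000 UMIs and 5.19% above 20000. The part of depth in the order of classes was not tested.

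Between the libraries, the surface epithelium-like cells had 8 of 83 measured nuclear members higher and 5 lower past 1.3-fold, beside 31.1% and 15.6% of all genes, and 3 of 13 mitochondrial ones higher. Set against surface epithelium-like cells, RPE-like cells had 3.48 times the mitochondrial share in PBS and 3.54 times in NaIO3, but 2.10 and 1.72 times the nuclear share. Of the 92 measured nuclear members, 75 were higher in RPE-like cells past 1.3-fold in PBS and 76 in NaIO3, beside 53.8% and 50.7% of all genes. Only 2 were lower in each, beside 25.5% and 26.9%. The median ratio was 2.02 and 2.01 for complex I, and 1.78 and 1.59 for complex V. Against macrophage-like cells, 60 of 93 were higher (52.9% of all genes) and 8 lower (22.8%). Against fibroblast-like cells of PBS 37 of 92 were higher (20.2% of all genes) and 7 lower (45.1%), and against mural-like cells 34 were higher (30.7%) and 15 lower (47.1%). Against the unnamed cluster of NaIO3 16 were higher (27.4%) and 23 lower (41.4%). Against dividing cell-like cells none of the 92 was higher (19.8% of all genes) and 38 were lower (31.9%). Median depth differed between these classes, and the counts were not matched for depth.

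Single members went against their complex. Cox5a was at 227 CPM in PBS RPE-like cells and 306 CPM in surface epithelium-like cells, and at 165 CPM in NaIO3 RPE-like cells against 254 CPM in surface epithelium-like, 275 CPM in macrophage-like and 419 CPM in dividing cell-like cells. Cox7a2l, which helps join complexes III and IV into supercomplexes, was at 134 CPM in the RPE-like and 385 CPM in the macrophage-like cells of NaIO3, and at 160 CPM in PBS RPE-like cells and 313 CPM in fibroblast-like cells. Ndufa4, an associated subunit of complex IV, was at 1427 CPM in NaIO3 RPE-like cells, 2509 CPM in the surface epithelium-like and 427 CPM in the macrophage-like ones. mt-Nd6 differed least between cells of the mitochondrial genes in NaIO3, with 28.4 CPM in RPE-like, 24.9 CPM in surface epithelium-like and 23.9 CPM in macrophage-like cells.

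Complex IV has subunits with tissue-specific forms encoded by separate genes. Cox8b, Cox7a1 and Cox6a2 are known from heart and skeletal muscle, Cox6b2 from testis, Cox4i2 from lung and Ndufa4l2 as a gene induced by low oxygen. Each was set beside its common partner as a share of the UMIs of the pair, which does not depend on the scale.

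Cox8b was the most used of these forms in RPE-like cells. It made up 25.1% (24.9% to 25.3%) of Cox8b plus Cox8a in PBS and 34.9% (34.5% to 35.2%) in NaIO3. Cox8b was at 905 CPM (896 to 914) in PBS and 1125 CPM (1112 to 1138) in NaIO3, and Cox8a at 2701 CPM (2686 to 2716) and 2102 CPM (2084 to 2119). Among cells of 5000 to 20000 UMIs Cox8b did not differ beyond counting error, with 1041 and 1055 CPM and a ratio of 1.013 (0.996 to 1.031), while Cox8a was at 2698 and 1875 CPM. The log2 ratio of Cox8b was 0.31 over all RPE-like cells, 0.04 with every cell given the same weight and -0.05 over all barcodes of any cell type. In the dividing cell-like cells of NaIO3 the share was 48.5% (47.6% to 49.4%), with Cox8b at 2058 CPM, and in their cluster of 130 barcodes alone it was 49.8% (48.9% to 50.7%).

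In droplet data free RNA gives UMIs in cells that do not express a gene, so levels in other classes need a yardstick. Of 10 RPE markers, the median level in other classes, as a percentage of that in RPE-like cells of the same library, was 41.7% in fibroblast-like, 14.1% in mural-like and 12.7% in surface epithelium-like cells of PBS. The fibroblast-like value includes the cluster with RPE markers. It was 39.3% in dividing cell-like, 11.6% in surface epithelium-like, 10.9% in macrophage-like cells and 9.46% in the unnamed cluster of NaIO3. Cox8b stood at 33.9%, 13.3% and 9.39% in the 3 PBS classes, at or below that yardstick. Whether its counts there come from free RNA was not tested. In the same classes Cox6b2 stood at 89.1%, 36.2% and 18.3%, and Cox7a1, on few UMIs, at 74.1%, 58.4% and 78.8%. These were above the highest of the 10 markers, 48.4%, 18.4% and 14.2%. In NaIO3 Cox8b stood at 183%, 17.3%, 17.4% and 17.2%, and at 208% in the cluster of 130 dividing cell-like barcodes alone, where the yardstick ranged from 29.1% to 92.5%. The first is far above the yardstick's range of 26.5% to 82.4%, the last lies inside its range of 7.05% to 57.5%, and the other 2 are just above the ranges of 9.89% to 17.0% and 8.77% to 14.6%.

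Cox7a1 made up 2.24% (2.10% to 2.40%) of Cox7a1 plus Cox7a2 in PBS RPE-like cells and 4.11% (3.82% to 4.41%) in NaIO3, with 19.4 CPM (18.1 to 20.7) and 27.8 CPM (25.9 to 29.9). Its share was 12.1% in dividing cell-like cells (12.6% in the cluster of 130 barcodes) and 7.83% in the unnamed cluster, the same cells in which its CPM was highest, 129 and 62.4. Cox6b2 went the other way in RPE-like cells, from 17.1% (16.8% to 17.5%) to 14.6% (14.1% to 15.1%) of its pair and from 167 to 113 CPM, and its share was 15.3% in the unnamed cluster and 3.33% in surface epithelium-like cells of NaIO3. Cox4i2 stayed below 1% of its pair in RPE-like cells (0.466% and 0.637%) and reached 9.70% (7.08% to 12.9%) in mural-like cells. Ndufa4l2 was at 0.0309% and 0.0367% in RPE-like cells and 10.7% (7.11% to 15.3%) in mural-like cells, and Cox6a2 at 0.0320% and 0.133% in RPE-like cells and 3.56% (2.84% to 4.40%) in macrophage-like cells. Cox8c had no UMI in RPE-like cells of either library.

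**Figure D5:**
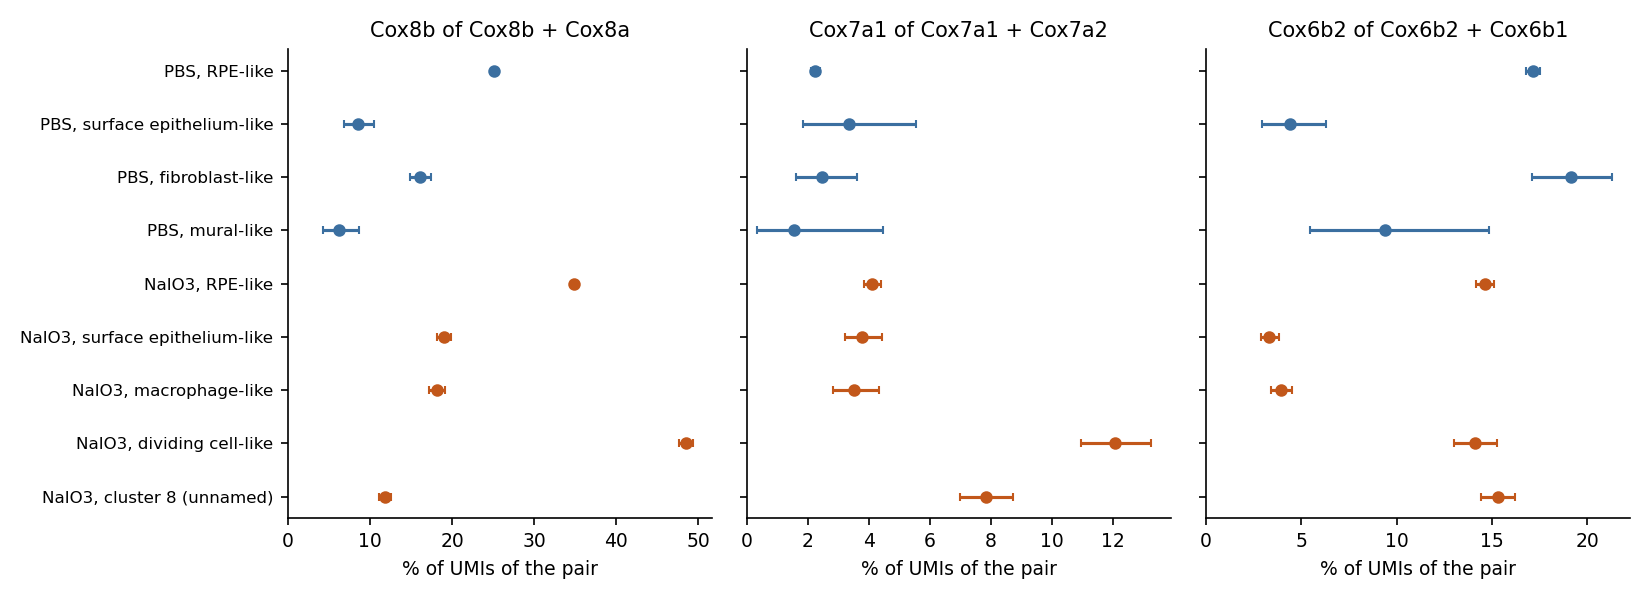
Share of the tissue form in the UMIs of its pair (x axes, %, with 95% exact binomial intervals) for Cox8b, Cox7a1 and Cox6b2 in each cell class with at least 50 barcodes, PBS in blue and NaIO3 in orange. Cox8b reaches 25.1% and 34.9% in RPE-like cells and 48.5% in dividing cell-like cells, and Cox7a1 is highest in the last at 12.1%.

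The sequences upstream of Cox8b, Cox7a1 and Cox6b2 are shown with matches to the motifs above in capitals. The part shown for Cox8b holds none of them, and those for Cox7a1 and Cox6b2 hold 2 CCAAT matches each, all read on the opposite strand.
Cox8b, chr7:140900447-140900696, minus strand: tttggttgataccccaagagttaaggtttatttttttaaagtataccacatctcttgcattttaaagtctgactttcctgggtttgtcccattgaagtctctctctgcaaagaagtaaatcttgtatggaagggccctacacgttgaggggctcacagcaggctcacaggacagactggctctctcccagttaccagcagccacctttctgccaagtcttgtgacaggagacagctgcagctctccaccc
Cox7a1, chr7:30183921-30184170, plus strand: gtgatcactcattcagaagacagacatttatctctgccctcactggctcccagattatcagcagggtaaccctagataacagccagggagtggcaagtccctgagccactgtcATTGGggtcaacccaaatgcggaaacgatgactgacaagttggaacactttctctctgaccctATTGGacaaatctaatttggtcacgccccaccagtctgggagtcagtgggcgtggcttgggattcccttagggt
Cox6b2, chr7:4753095-4753344, minus strand: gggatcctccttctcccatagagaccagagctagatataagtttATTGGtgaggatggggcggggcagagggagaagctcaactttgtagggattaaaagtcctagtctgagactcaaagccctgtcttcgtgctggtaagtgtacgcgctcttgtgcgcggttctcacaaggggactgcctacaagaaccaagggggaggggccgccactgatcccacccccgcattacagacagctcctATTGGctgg

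Genes that build and control the chain were taken from lists by function. Of 17 measured genes for copying, transcribing and stabilising mitochondrial DNA and RNA, 5 were higher past 1.3-fold in NaIO3 RPE-like cells and 1 lower, with a median log2 ratio of 0.26. The higher ones were Tbrg4 (2.56 and 5.32 CPM) and Fastk (25.9 and 40.2 CPM), of a family that binds mitochondrial RNA, Lrpprc (13.7 and 20.8 CPM), which stabilises it, Polg (16.7 and 24.98 CPM), the DNA polymerase, and Fastkd2 (2.67 and 3.60 CPM). The transcription factor Tfb2m was lower (8.96 and 6.67 CPM), and Tfam, which packages the genome, was at 16.2 and 14.3 CPM with an interval of the ratio from 0.781 to 1.005.

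Among 10 measured regulators of biogenesis, Gabpb1 (3.96 and 6.40 CPM), Pprc1 (2.85 and 4.12 CPM) and Esrra (22.8 and 31.5 CPM) were higher, none was lower and the median was 0.20. Ppargc1a, the coactivator PGC-1alpha, was at 68.3 and 72.1 CPM with an interval of the ratio from 0.997 to 1.12. Of 15 chaperones, proteases and antioxidant enzymes, 5 were higher (Hspa9, Txnrd2, Lonp1, Trap1 and Hspd1, with log2 ratios from 0.42 to 0.77) and none lower, with a median of 0.06. Against a background of 31.2% higher, these counts are of the size found among all genes.

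The remaining lists held few genes past 1.3-fold. Of 18 citrate cycle and pyruvate dehydrogenase genes 3 were higher and 1 lower, of 32 assembly factors outside the chosen symbols none was higher and 4 lower, and of 76 mitochondrial ribosomal proteins 6 were higher and 8 lower, with a median of -0.10. Beside 9.86% lower among all measured genes, these counts of lower genes are close to the background share. The counts of higher genes are each a smaller share than the 31.2% higher among all measured genes. Cytochrome c (Cycs, 240 and 227 CPM) and Cyc1 (139 and 154 CPM) were both within 1.3-fold. Of 8 carriers, Ucp2, an uncoupling protein relative, was higher at 262 and 462 CPM and the ADP/ATP carrier Slc25a4 lower at 1171 and 820 CPM. The lists for mitochondrial DNA (0.26) and for regulators (0.20) had medians above that of all measured genes, 0.16, and the medians of all the other lists by function lay below it.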

How the data were processed

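The authors deposited 1 gene-by-barcode matrix of raw UMI counts per library, made with Cell Ranger 3.0.2 on the mm10 build, per the submitters' processing notes. The labels leave annotation release, strand setting and cell calling unstated. The PBS library held 4618 barcodes and 51055592 counts, the NaIO3 library 4058 and 51168520. Barcodes with at least 500 genes were clustered together (scanpy 1.11.5, 2000 variable genes without mt- genes and members, 30 components, 15 neighbours, Leiden resolution 1) and named from markers; automatic doublet calls marked 0 and 4 barcodes, so none was removed. Counts were summed per class and library as CPM, with exact Poisson, conditional binomial and Clopper-Pearson 95% intervals. A gene was measured from 100 counts over both libraries; a call was a ratio past 1.3-fold, with no test. TMM factors came from edgeR 4.0.16. The interval script was tested on simulated data. Transcript lengths and coordinates came from GENCODE M21 (GRCm38). Named genes were the 13 mitochondrial genes, core subunits and tissue forms on a list, the 8 highest and 8 lowest other nuclear members by interval bound, and any member past the fold. Members and lists were chosen with earlier results of these data known. The values of 1 gene that this rule names are not reported here.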

Additional observations from a re-analysis of the deposited data

Results flagged for a closer look

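The summed nuclear respiratory genes had opposite signs in 2 cell classes under the same contrast. Their log2 ratio, NaIO3 over PBS, was -0.178 (-0.181 to -0.174) in RPE-like cells and 0.112 (0.091 to 0.133) in surface epithelium-like cells, and with 1 library per group the difference was not tested. The surface epithelium-like class was made of 3 clusters in unlike numbers, with 48, 10 and 8 barcodes in PBS and 432, 145 and 127 in NaIO3. Within the first of these alone, a split added after seeing the data, the nuclear ratio was 0.02 (-0.005 to 0.048) and the mitochondrial one 0.09. The sums and the medians over genes read differently. The nuclear members had a median log2 ratio of 0.05 in surface epithelium-like cells, beside 0.11 for all measured genes. In the first cluster it was -0.12 beside 0.13, with 58 of 80 members below 1. In RPE-like cells it was -0.17 beside 0.16, so the members' median lay below that of all genes in each.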

How the results depend on the processing

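No paired analysis was possible because each group is 1 library. In RPE-like cells the log2 ratio of the mitochondrial sum, 0.38, was 0.40 with at most 25% mitochondrial counts, 0.11 with at most 10%, 0.21 with TMM scaling, 0.23 centred on the median nuclear gene, 0.37 without likely doublets, 0.38 at Leiden resolution 0.5, 0.36 in the largest cluster of each library, 0.28 without pigment-led clusters (a pigment gene among 10 leading genes; 122 NaIO3 barcodes left), 0.47 at 5000 to 20000 UMIs, 0.40 without the rod-rich and the interferon-led cluster (added after seeing the data), 0.42 per nuclear count and 0.36 with cells weighed equally. The nuclear sum, -0.18, was 0.0271 with the 10% limit, -0.35 with TMM, -0.33 centred, -0.17 without doublets, at resolution 0.5 or without pigment-led clusters, -0.31 in the depth window, -0.18 without the rod-rich and interferon-led clusters, -0.14 per nuclear count and -0.29 with cells weighed equally. The nuclear median, -0.17, was 0.035 with the 10% limit, -0.34 with TMM and -0.33 centred. It was -0.29 in the depth window and -0.26 with cells weighed equally. Of the 122 NaIO3 barcodes left without pigment-led clusters, 120 came from the interferon-led cluster.

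Over all barcodes, whose mix of cells differs between the libraries, the mitochondrial sum was -0.0044 and the nuclear sum -0.29. There, 9 of 13 mitochondrial genes had a ratio below 1 (2 in RPE-like cells) and their median log2 ratio was -0.08. Of the genes past 1.3-fold, mt-Nd4 (-0.0426), mt-Cytb (-0.0341) and Cox5a (0.0858) changed sign. mt-Co2 (-0.13), mt-Co3 (-0.08), mt-Nd3 (-0.24), mt-Nd4l (-0.10), mt-Nd5 (-0.28) and Cox8b (-0.05), above 1 in RPE-like cells, also had ratios below 1 (log2 values given). Of 55 named genes, 30 kept their sign in all settings run.

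The 4 mitochondrial genes past the fold were 0 with the 10% limit, TMM, centring, all barcodes or 1.5-fold, and 2 without pigment-led clusters. In the depth window there were 6, beside 36.4% higher of all genes. The 3 higher nuclear genes were 1 with TMM or centring, 5 at resolution 0.5, 8 in the largest clusters, 7 without pigment-led clusters, 6 with cells weighed equally and 0 at 1.5-fold. The 8 lower were 1 with the 10% limit or 1.5-fold, 40 with TMM, 38 centred, 15 without pigment-led clusters, 30 in the depth window, 26 over all barcodes and 31 with cells weighed equally.

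Of RPE-like over surface epithelium-like cells, the mitochondrial ratio was 3.30 (PBS) and 3.40 (NaIO3) with the 25% limit, 2.83 and 3.35 at resolution 0.5 and 3.61 (NaIO3) without doublets; the nuclear one was 1.89 and 1.70 at resolution 0.5, and in NaIO3 1.73 with the limit or without doublets. Depth limits Cox7b2, Cox6a2, Ndufa4l2 and Cox8c, each under 40 UMIs.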
